A study of Rattus norvegicus with 16 samples.

Results

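The interferon response, IRF and STAT genes of the rat cornea were taken as every probe set with a single gene symbol that starts with Ifi, Ifn, Oas or Isg, or with Irf, Stat, Gbp or Mx followed by a digit, or that is one of a short list of further interferon-induced genes and sensors. This gave 57 genes on 79 probe sets, of 14217 genes on the arrays, and 14 of the genes have more than 1 probe set. Corneas of male Wistar rats aged 12 to 16 weeks were placed with 2 sutures 1.5 mm from the limbus and received 4 eyedrops per day for 2 days, 8 in all. The drops held dexamethasone at 1 mg/ml (a synthetic glucocorticoid), an antibody against rat Vegf (anti-Vegf), or IgG as sham treatment, and naïve corneas had neither sutures nor drops. The labels give 20 mg/ml for anti-Vegf and IgG, whereas the methods of the study give the same figure in µg/ml, and the labels name an anti-IgG antibody for the sham group while the treatment text names goat IgG. Each group had 4 corneas, each on 1 Affymetrix array, 16 in all. By the methods of the study, RNA came from only a part of the cornea, lying between sutures and limbus, with the limbal rim left out. Because all 3 treated groups were sutured and the naïve group was not, suture and drops cannot be told apart in a comparison with naïve corneas, whereas comparisons between treated groups share the suture. The values are log2 signals, so a difference of 1 is a 2-fold change, and a signal of one gene is not set against that of another.

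Interferons are secreted proteins that put cells into an antiviral state. Type I interferons such as Ifnb1 act through the receptor pair Ifnar1 and Ifnar2, and interferon-gamma (Ifng), made mainly by T and NK cells, acts through Ifngr1 and Ifngr2. Janus kinases on these receptors phosphorylate STAT proteins. A complex that contains Stat2 and Irf9 binds the interferon-stimulated response element (ISRE), while STAT dimers bind the gamma-activated site (GAS). The genes that are switched on encode guanylate-binding proteins, membrane-bound IFITM proteins that hinder viral entry, IFIT and OAS proteins that bind viral RNA, the ubiquitin-like modifier Isg15 and the peptide transporter of antigen presentation. Glucocorticoids such as dexamethasone are known to repress part of this program in other cells.

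The arrays had similar medians, between 6.55 and 6.62 on the log2 scale, and the tissue label fits its markers, since the mean signal of 9 corneal epithelial genes lay between 13.16 and 13.37 in dexamethasone, 13.20 and 13.33 in anti-Vegf, 13.28 and 13.35 in IgG and 13.06 and 13.15 in naïve corneas. The mean signal of 14 genes shared by leukocytes was 7.64 to 8.46 in dexamethasone, 7.98 to 8.16 in anti-Vegf and 7.86 to 8.30 in IgG corneas, against 6.25 to 6.39 in naïve corneas, with 11, 11 and 12 of the 14 genes called higher. The mean of 6 neutrophil genes was 8.47 to 10.09, 9.42 to 9.54 and 9.51 to 9.81 in these groups, against 6.42 to 6.55 in naïve corneas, and that of 12 monocyte and macrophage genes 7.42 to 7.95, 7.45 to 7.79 and 7.41 to 8.21, against 6.11 to 6.51. Of 8 keratocyte genes, 2, 6 and 4 were called lower, with a mean of 11.43 to 11.73, 10.64 to 11.33 and 11.01 to 11.60, against 11.84 to 12.15. The mean of 16 T and NK cell genes was 5.06 to 5.26, 5.22 to 5.41 and 5.33 to 5.39 in these groups, against 5.08 to 5.11 in naïve corneas, with 1 gene called in each comparison. The part of these cells in the changes against naïve corneas was not tested. In RNA from a piece of tissue, more cells of a type and more RNA per cell cannot be told apart. The arrays also differed in a technical measure. The 12 probe sets for poly-A control RNA, which is added to a sample before labelling, averaged 5.19 ± 0.15 in dexamethasone, 7.02 ± 0.11 in anti-Vegf, 7.22 ± 0.27 in IgG and 5.11 ± 0.14 in naïve corneas (SD, n = 4 each). Dexamethasone differed from anti-Vegf and from IgG, and anti-Vegf and IgG differed from naïve, at an exact permutation p of 0.0286 each (two-sided), the smallest that 4 against 4 arrays can give, while dexamethasone and naïve gave an exact permutation p of 0.571. The 5′ minus 3′ signal of Gapdh, a measure of RNA integrity, was −0.39 ± 0.07, −0.11 ± 0.04, −0.08 ± 0.05 and −0.30 ± 0.15 in the same order, and dexamethasone differed from anti-Vegf and from IgG at an exact permutation p of 0.0286 each, as did IgG from naïve. For beta-actin the same measure was −1.17 ± 0.23, −0.87 ± 0.25, −0.71 ± 0.08 and −1.28 ± 0.51, with an exact permutation p of 0.0286 for dexamethasone against IgG and for IgG against naïve. Whatever goes with these control signals cannot be told apart from the treatment in those comparisons.

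One array of each treated group stood high for the interferon-induced genes. Array F26 had the highest signal of the dexamethasone group for 28 of the 57 genes, F1x that of the anti-Vegf group for 35 and F19 that of the IgG group for 27, whereas the naïve array that was most often highest, array 4, was so for 21. Among the 31 genes that encode effectors rather than ligands, receptors, transcription factors, their binding proteins or sensors, F26 and F1x were each the highest for 22 and F19 for 19, with mean log2 deviations from their groups of 0.36, 0.40 and 0.48. Over the 14 leukocyte genes, F1x and F19 averaged 8.08 and 8.18, within the range of their groups. F26 had the highest such mean of its group, 8.46. Among narrower lists, F1x had the highest neutrophil mean (9.54) and monocyte and macrophage mean (7.79) of its group, but not the highest dendritic cell mean. F19 had the highest mean of 4 dendritic cell genes of its group (6.95), but not the highest mean of the other 2 lists. The keratocyte mean was the highest of its group on each of F26 (11.73), F1x (11.33) and F19 (11.60). F26 and F1x had the lowest corneal epithelial mean of their groups (13.16 and 13.20), whereas F19 did not. The part of these cells was not tested. Array F25 of the dexamethasone group went the other way, being the lowest of its group for 26 of the 57 genes, with the lowest leukocyte mean, 7.64. Counts and the calls that changed are given with and without these arrays.

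Against naïve corneas, 15 of the 57 genes rose and 5 fell with dexamethasone, where rose and fell mean an adjusted p under 0.05 (limma, Benjamini-Hochberg adjustment over all 31042 probe sets) and a fold change of at least 1.5. Over all 14217 genes, 8.19% rose and 4.45% fell in that comparison. With anti-Vegf 23 of the 57 rose and 1 fell, against 6.82% and 5.94% of all genes, and with IgG 18 rose and 2 fell, against 6.32% and 5.02% of all genes. The median log2 difference of the 57 genes from naïve was 0.31 with dexamethasone, 0.50 with anti-Vegf and 0.46 with IgG, while that of all genes was 0.00, −0.01 and −0.01. Centring each array on reference genes moved the median of all genes to −0.21, −0.24 and −0.18, and on that scale 12 of the 57 rose and 7 fell with dexamethasone, where 5.16% and 10.6% of all genes did. With anti-Vegf 17 rose and 2 fell, where 4.23% and 13.9% of all genes did, and with IgG 15 rose and 3 fell, where 4.6% and 10.6% did. The 3 comparisons share the naïve arrays. Leaving out F26, F1x and F19 together gave 12 higher and 4 lower with dexamethasone, 23 and 1 with anti-Vegf and 18 and 2 with IgG. Without F25, 16 rose and 4 fell with dexamethasone, Ifi44l being gained (1.08, adjusted p = 0.0384) and Ifit2 lost (−0.76, adjusted p = 0.0519).

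**Figure D1:**
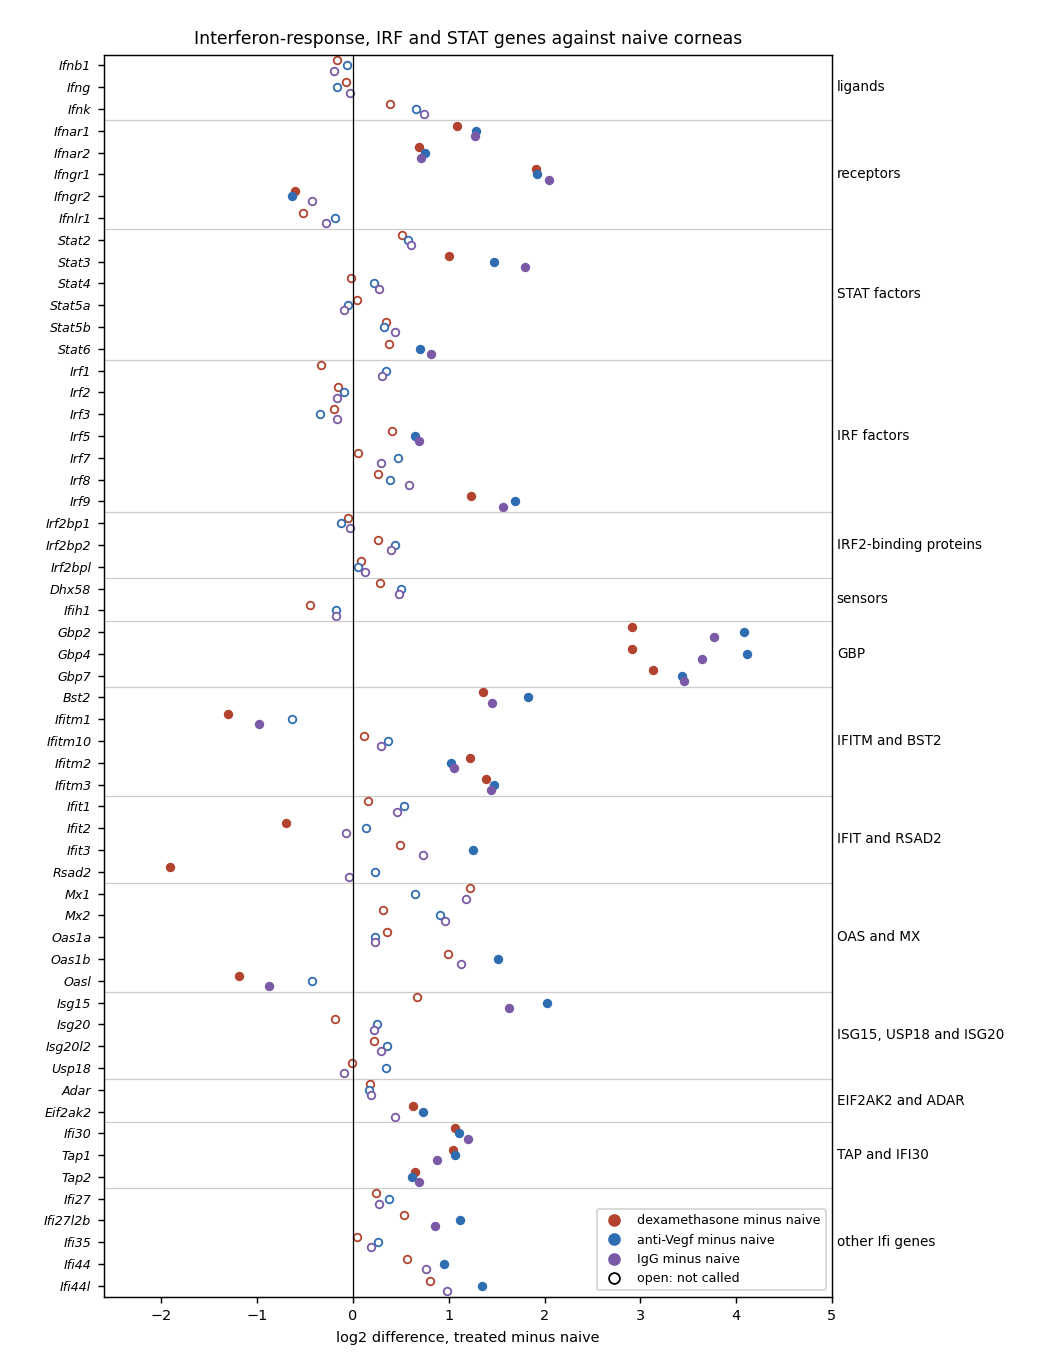
Log2 difference from naïve corneas (horizontal axis) of each of the 57 genes, grouped by role, with 1 point each for dexamethasone, anti-Vegf and IgG; filled points passed both limits and open points did not. The guanylate-binding proteins stand furthest to the right in all 3 groups, between 2.91 and 4.11, and Rsad2 is lowest with dexamethasone, at −1.91.

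The ligands stayed at low signals. Of the 3 measured, Ifnb1 averaged 4.58 ± 0.08 in dexamethasone, 4.68 ± 0.20 in anti-Vegf, 4.54 ± 0.08 in IgG and 4.74 ± 0.22 in naïve corneas, and Ifng 3.34 ± 0.06, 3.24 ± 0.11, 3.37 ± 0.16 and 3.41 ± 0.10 in the same order (SD, n = 4 each). All 16 arrays had both below their 40th percentile of signals, which lay between 5.89 and 5.98. The same holds for Ifnk, a type I interferon of epithelial cells, which was 0.39 ± 0.27 above naïve with dexamethasone, 0.66 ± 0.27 with anti-Vegf and 0.74 ± 0.27 with IgG (log2 difference ± SE, adjusted p = 0.352, 0.080 and 0.0505, limma). None of the ligands passed the test in any of the 6 comparisons, although Ifnk with IgG came close to the limit of 0.05. At these low signals a change of ligand RNA may be missed.

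The receptor chains did not move as a pair. Ifngr1, the ligand-binding chain of the interferon-gamma receptor, read 11.69, 12.34, 11.83 and 12.28 in dexamethasone, 12.02, 11.84, 12.16 and 12.18 in anti-Vegf and 12.40, 12.01, 12.13 and 12.16 in IgG corneas, against 10.10, 9.93, 10.29 and 10.19 in naïve corneas. All 12 treated arrays lay above all naïve arrays, and the fold changes over naïve were 3.75, 3.79 and 4.13, and its adjusted p-values were the smallest among the 57 genes in each comparison with naïve (2.0e-07, 1.7e-07 and 9.4e-08). Its partner Ifngr2, the signalling chain, went down, at 10.34, 10.17, 9.98 and 10.41 in dexamethasone, 10.45, 10.06, 9.99 and 10.25 in anti-Vegf and 10.57, 10.26, 10.42 and 10.34 in IgG corneas, against 10.60, 10.64, 11.04 and 11.03 in naïve corneas. It fell by 0.60 with dexamethasone and by 0.64 with anti-Vegf (SE 0.13, adjusted p = 0.00319 and 0.00184). With IgG it was −0.43, under the fold limit (adjusted p = 0.0225). The fall was near the fold limit, and leaving out F6, naïve 3 or naïve 4 put it under the limit for anti-Vegf (−0.57 in each), as did F26, F27, naïve 3 or naïve 4 for dexamethasone (−0.58 to −0.52). The other probe set of Ifngr2 differed, at −0.89 with dexamethasone (adjusted p = 0.0198) and 0.05 with IgG (adjusted p = 0.920). With anti-Vegf it averaged 7.79, against 8.18 in naïve corneas, under the fold limit and with overlapping arrays.

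Both type I receptor chains rose. Ifnar1 read 8.62, 8.94, 8.57 and 8.97 in dexamethasone, 8.96, 9.02, 9.02 and 8.91 in anti-Vegf and 8.95, 8.94, 8.87 and 9.09 in IgG corneas, against 7.78, 7.42, 7.91 and 7.66 in naïve corneas, which is 2.12-fold, 2.43-fold and 2.41-fold higher (adjusted p = 4.9e-06, 8.3e-07 and 9.1e-07). It is represented by 6 probe sets, of which 4 rose in all 3 comparisons and 2 did not pass the test in any of them. Ifnar2 was 1.61-fold, 1.68-fold and 1.63-fold higher, again with no overlap between treated and naïve arrays. Its second probe set averaged 7.10 in dexamethasone, 7.55 in anti-Vegf and 7.42 in IgG corneas, against 6.60 in naïve corneas. On that probe set the rise with dexamethasone was under the fold limit. The interferon-lambda receptor Ifnlr1, which is typical of epithelium, averaged 7.18 ± 0.14 in dexamethasone, 7.52 ± 0.19 in anti-Vegf and 7.42 ± 0.10 in IgG corneas, against 7.70 ± 0.19 in naïve corneas (SD, n = 4 each). The dexamethasone arrays lay below all others for this gene, at −0.52 from naïve (adjusted p = 0.00272, under the fold limit).

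Among the STAT factors, Stat3, which relays signals of the interleukin-6 family as well as of interferons, rose most. It read 9.49, 10.79, 10.62 and 10.63 in dexamethasone, 10.90, 10.83, 10.84 and 10.84 in anti-Vegf and 11.24, 11.17, 11.09 and 11.17 in IgG corneas, against 8.41, 9.66, 9.80 and 9.64 in naïve corneas. The anti-Vegf and IgG arrays were tightly grouped, and the dexamethasone array F25 overlapped the naïve arrays. The fold changes were 2.01, 2.78 and 3.46 (adjusted p = 0.0147, 0.000913 and 0.000211). The call with dexamethasone was lost without F26 (log2 0.87, adjusted p = 0.0545). A second probe set of Stat3 rose by a smaller and more even amount, 0.79, 0.77 and 0.85 on the log2 scale. Stat6, the factor of interleukin-4 signalling, rose with anti-Vegf (0.70 ± 0.13) and IgG (0.81 ± 0.13), and with dexamethasone it was 0.38 ± 0.13 above naïve. Stat2 was 0.51, 0.58 and 0.61 above naïve (adjusted p = 0.138, 0.0787 and 0.0622). No probe set of Stat4, Stat5a or Stat5b was called.

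Of the 7 IRF factors, Irf9, the DNA-binding subunit of the type I interferon complex, was the one that rose in all 3 comparisons with naïve. Its signals were 8.17, 9.04, 8.19 and 8.62 in dexamethasone, 9.36, 8.78, 8.83 and 8.85 in anti-Vegf and 8.71, 9.06, 8.64 and 8.92 in IgG corneas, against 7.15, 7.24, 7.30 and 7.39 in naïve corneas. Every treated array exceeded every naïve array, by 2.35-fold, 3.22-fold and 2.96-fold on average (adjusted p = 0.000106, 5.6e-06 and 1.2e-05). Its second probe set rose in all 3 comparisons too, by 0.94, 1.31 and 1.19 on the log2 scale. Irf5, a factor of macrophages and dendritic cells, rose with anti-Vegf (0.65 ± 0.13) and with IgG (0.69 ± 0.13). The call with anti-Vegf fell under the fold limit without F6 or naïve 4 (0.55 and 0.57). Irf7, which amplifies type I interferon production, differed from naïve by 0.05 ± 0.29, 0.47 ± 0.29 and 0.29 ± 0.29. Its values in the anti-Vegf group were 11.497 on F1x and 10.23 to 10.35 on the other arrays. Irf2bp2, a co-repressor, was 0.27, 0.44 and 0.39 above naïve and under the fold limit in each.

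The guanylate-binding proteins, GTPases that attack intracellular microbes and that interferon-gamma induces strongly, changed more than any other group. Gbp2 read 10.34, 12.21, 12.16 and 12.21 in dexamethasone, 12.74, 12.93, 13.01 and 12.96 in anti-Vegf and 13.02, 12.36, 12.76 and 12.23 in IgG corneas, against 9.09, 9.36, 8.20 and 8.65 in naïve corneas. It was 2.91 ± 0.35, 4.09 ± 0.35 and 3.77 ± 0.35 above naïve on the log2 scale (adjusted p = 2.5e-05, 8.2e-07 and 2.0e-06). No treated array overlapped the naïve arrays, although F25 of the dexamethasone group lay far below the other arrays of that group. Gbp4 read 8.02, 9.73, 9.20 and 8.81 in dexamethasone, 10.17, 10.15, 9.98 and 10.25 in anti-Vegf and 9.80, 9.65, 9.54 and 9.67 in IgG corneas, against 6.81, 7.20, 4.09 and 6.002 in naïve corneas, which is 7.53-fold, 17.3-fold and 12.4-fold higher. Gbp7 was 8.74-fold, 10.8-fold and 10.9-fold higher. Its lowest treated signal was 8.24 on F25 and its highest naïve signal 6.51. Between treatments, Gbp2 was −1.18 ± 0.35 in dexamethasone relative to anti-Vegf (adjusted p = 0.0542) and −0.86 ± 0.35 relative to IgG (adjusted p = 0.135), and every dexamethasone array lay below every array of both groups. Gbp4 was −1.20 ± 0.48 relative to anti-Vegf (adjusted p = 0.157) and did not overlap that group. These differences did not pass the test. Without F25, Gbp2 was −0.71 relative to anti-Vegf (adjusted p = 0.0771), −0.40 relative to IgG (adjusted p = 0.310) and 3.37 above naïve. The guanylate-binding genes are similar in sequence, and the 3 lie side by side in the RefSeq gene order of chromosome 2, so a probe set may read more than its own gene.

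**Figure D2:**
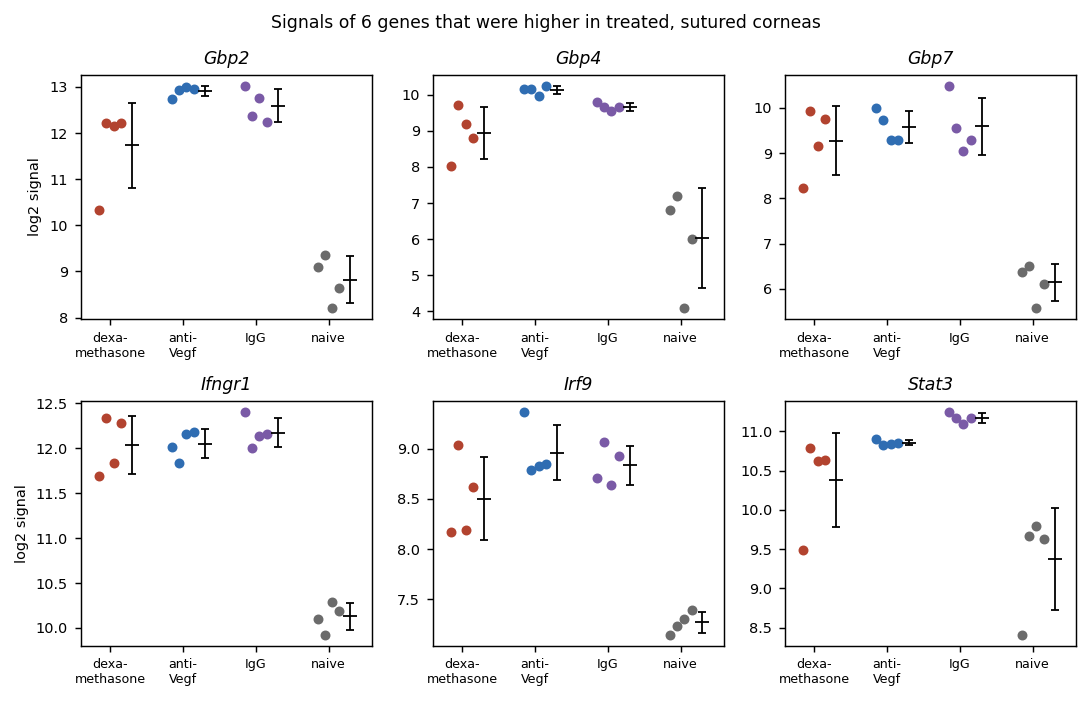
Log2 signal of Gbp2, Gbp4, Gbp7, Ifngr1, Irf9 and Stat3 on each array, with 4 arrays per group, and the group mean and SD as a bar beside the points. Dexamethasone array F25 is the low point for Gbp2 (10.34) and Stat3 (9.49), and the naïve group spreads widely for Gbp4, between 4.09 and 7.20.

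The promoter windows of these 3 genes share the ISRE core. Windows of 300 bases, 250 before and 50 after the gene start, came from RefSeq on the rat build GRCr8. The 30 bases around the match follow with the 10 matching bases in capitals. All 3 match on the opposite strand, so the motif GAAANNGAAA appears as its reverse complement.
Gbp2 (chr2:234005686-234005715, plus strand): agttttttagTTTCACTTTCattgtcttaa
Gbp4 (chr2:233978466-233978495, plus strand): agaagcagggTTTCGATTTCggttcccttt
Gbp7 (chr2:233948838-233948867, plus strand): gcctttgtagTTTCAATTTCagttctctgt
The matches start 31, 10 and 41 bases before the gene start. For Gbp2, whose rise over naïve was among the largest, the 160 bases before the gene start place the match in its context, again with the match in capitals.
Gbp2 (chr2:234005567-234005726, plus strand): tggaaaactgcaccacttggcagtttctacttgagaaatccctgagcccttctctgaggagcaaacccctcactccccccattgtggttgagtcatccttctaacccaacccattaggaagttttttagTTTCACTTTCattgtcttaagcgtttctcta

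The membrane proteins split. Ifitm3, which blocks fusion of virus and endosome, read 13.52 to 13.78 in dexamethasone, 13.75 to 13.80 in anti-Vegf and 13.60 to 13.88 in IgG corneas, against 11.93 to 12.60 in naïve corneas, and was 2.62-fold, 2.78-fold and 2.72-fold higher. Ifitm2 was 2.32-fold, 2.03-fold and 2.08-fold higher, with the treated arrays above all naïve arrays. Bst2, or tetherin, which holds budding virions at the cell surface, was 2.56-fold, 3.54-fold and 2.74-fold higher (adjusted p = 0.0018, 0.000149 and 0.000995), with F26, F1x and F19 the highest of their groups at 9.32, 9.82 and 9.29. Ifitm1 went the other way. It read 11.14, 11.65, 11.38 and 12.00 in dexamethasone, 12.00, 12.63, 11.90 and 12.34 in anti-Vegf and 12.44, 12.12, 11.55 and 11.37 in IgG corneas, against 12.18, 13.18, 12.98 and 13.06 in naïve corneas. All dexamethasone arrays lay below the naïve arrays, and the gene fell by 1.31 with dexamethasone (SE 0.26, adjusted p = 0.00179) and by 0.98 with IgG (adjusted p = 0.0113). With anti-Vegf it was −0.63 (adjusted p = 0.0893). The 3 IFITM genes are close paralogues, and cross-reaction of their probe sets was not examined.

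The antigen-presentation members rose in every comparison with naïve. Tap1 and Tap2 form the transporter that carries peptides to MHC class I, and Ifi30 is a thiol reductase of the class II route. Tap1 was 2.06-fold, 2.09-fold and 1.84-fold higher with dexamethasone, anti-Vegf and IgG, and Ifi30 2.09-fold, 2.16-fold and 2.29-fold. Tap2 was 1.57-fold, 1.53-fold and 1.62-fold higher, near the limit of 1.5. Leaving out F26 or naïve 1 put it under that limit for dexamethasone (0.54 and 0.58 on the log2 scale), naïve 1 or naïve 2 for anti-Vegf (0.55 and 0.58) and F17 for IgG (0.58). The second probe set of Tap1 was not called in any comparison (−0.05, 0.09 and 0.22 from naïve). Between treatments these 3 genes differed by at most 0.19 on the log2 scale, which is the difference of Tap1 between anti-Vegf and IgG. Ifi30 is also made by antigen-presenting cells.

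The IFIT, OAS, MX and ISG15 genes, the classical type I response, varied widely between corneas of one group. Isg15 read 7.79, 9.36, 8.12 and 8.59 in dexamethasone, 10.84, 9.81, 9.30 and 9.33 in anti-Vegf and 8.79, 11.13, 8.38 and 9.42 in IgG corneas, against 8.10, 7.49, 7.68 and 7.92 in naïve corneas. The highest values of the treated groups belong to F26, F1x and F19. Isg15 was 4.07-fold higher with anti-Vegf (adjusted p = 0.00585) and 3.10-fold with IgG (adjusted p = 0.0212), and with dexamethasone it was 0.67 ± 0.49 above naïve (adjusted p = 0.393). The call with IgG was lost without F19 (1.06, adjusted p = 0.0592) or without naïve 2 (1.53, adjusted p = 0.0561). With F26, F1x and F19 all left out, it was 1.06 with an adjusted p of 0.00811. Relative to anti-Vegf and to IgG, Isg15 in dexamethasone was −1.36 ± 0.49 (adjusted p = 0.112) and −0.97 ± 0.49 (adjusted p = 0.239).

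Mx2, a GTPase that blocks viruses, is an example. Its probe set of highest mean signal read 4.94, 5.87, 5.19 and 5.19 in dexamethasone, 7.38, 5.80, 5.18 and 5.22 in anti-Vegf and 5.32, 7.81, 5.399 and 5.26 in IgG corneas, against 5.11, 5.02, 4.84 and 4.98 in naïve corneas, so that F1x and F19 alone exceeded 6 with this probe set. The second probe set of Mx2 showed another order of arrays, with 8.00 on F30, 10.41 on F6, 8.30 on F17 and 9.19 on naïve 4, and 3.41, 3.53 and 3.56 on F26, F1x and F19, so the level of Mx2 is uncertain. Usp18, which removes Isg15 and dampens the type I receptor, was 8.58 on F26, 8.96 on F1x and 9.04 on F19, while the other treated arrays lay between 7.20 and 8.45 and the naïve arrays between 7.96 and 8.19. It was not called in any comparison. Ifit1 was 8.38 on F19 and 7.64 on F1x, against 6.46 to 6.54 in naïve corneas. Ifit1, Mx1, Mx2, Usp18, Irf7 and Oas1a passed no test against naïve. These genes were chosen after their values were seen.

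Against this spread, a few of these genes were called with anti-Vegf. Ifit3 was 2.39-fold higher (adjusted p = 0.021), Oas1b, an oligoadenylate synthetase relative, 2.85-fold (adjusted p = 0.0123), Ifi44l 2.54-fold (adjusted p = 0.0104) and Ifi44 1.94-fold (adjusted p = 0.0225). Oas1b was above the 40th percentile of signals on 2 of 16 arrays and Ifi44l on 4, with naïve means of 4.17 and 4.80, so their folds rest on low signals. Without F26, F1x and F19, Oas1b was 1.10 above naïve with anti-Vegf (adjusted p = 0.0305). Ifit3 lost its call without F1x (1.00, adjusted p = 0.0721) or naïve 3 (1.12, adjusted p = 0.0599), and Ifi44 without F1x (0.70, adjusted p = 0.0774) or naïve 4 (0.88, adjusted p = 0.0563). With IgG these 4 genes were 0.73, 1.12, 0.98 and 0.76 above naïve, and with dexamethasone 0.50, 0.99, 0.81 and 0.56, and none of these passed the test. Anti-Vegf and IgG were not shown to differ for any of them. Ifi27l2b rose with anti-Vegf (2.17-fold) and with IgG (1.81-fold, adjusted p = 0.0245), and the call with IgG was lost without F19 (0.63, adjusted p = 0.0857), naïve 1 (0.85, adjusted p = 0.0509) or naïve 2 (0.66, adjusted p = 0.0875). Eif2ak2, the RNA-activated kinase PKR that shuts down translation, was 1.66-fold higher with anti-Vegf and 1.54-fold with dexamethasone, and the call with dexamethasone was lost without F26, F27 or naïve 4 (0.51 to 0.58, adjusted p = 0.0531 to 0.0796). Ifi27 was 0.24, 0.37 and 0.28 above naïve, under the fold limit.

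**Figure D3:**
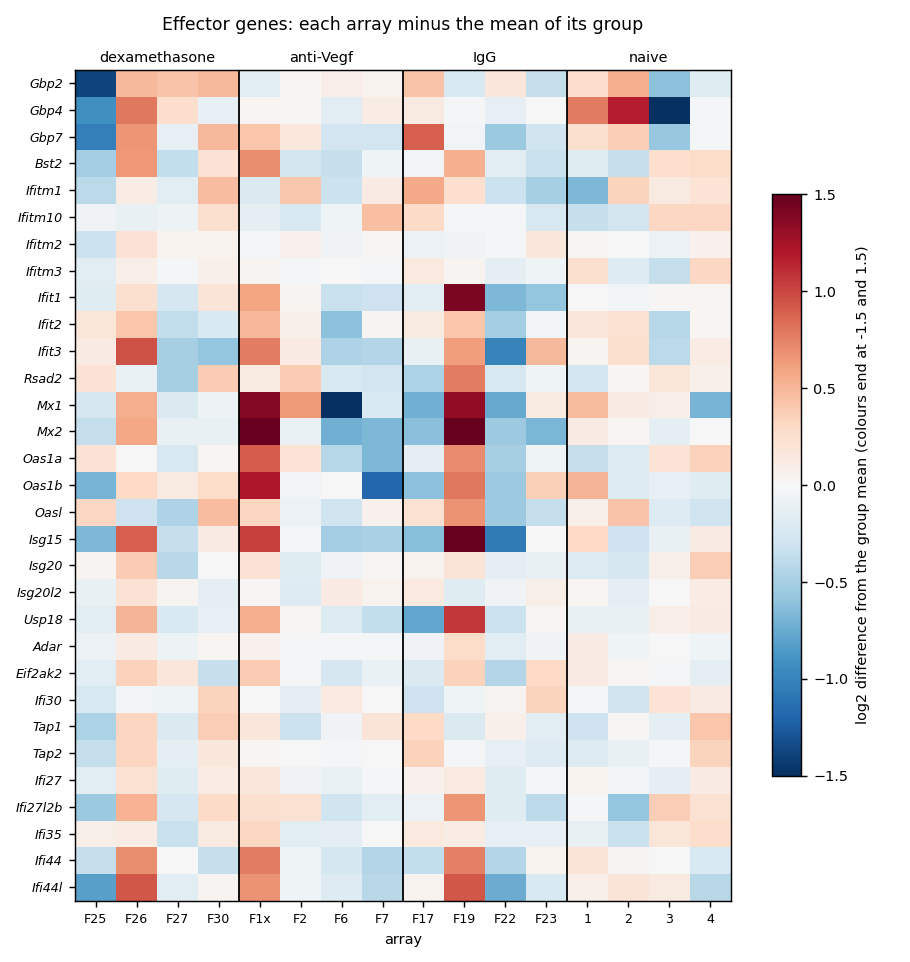
Difference of each array from the mean of its group (colour, log2 scale) for the 31 effector genes in rows and the 16 arrays in columns, with vertical lines between dexamethasone, anti-Vegf, IgG and naïve arrays. F26, F1x and F19 hold the highest value of their group for 22, 22 and 19 of the genes, and F25 is lowest of its group for the guanylate-binding proteins.

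Oasl, an OAS-like protein that binds RNA without making oligoadenylates, fell. It read 10.42, 9.80, 9.64 and 10.57 in dexamethasone, 11.19, 10.78, 10.57 and 10.94 in anti-Vegf and 10.64, 11.09, 9.87 and 10.06 in IgG corneas, against 11.37, 11.72, 11.10 and 10.99 in naïve corneas. It fell by 1.19 with dexamethasone (SE 0.26, adjusted p = 0.00336), whose arrays all lay below the naïve arrays. In IgG corneas the signal dropped by 0.88 (adjusted p = 0.0195), which no longer passed without F22, F23 or naïve 2 (−0.76 to −0.70, adjusted p = 0.0644 to 0.0716). With anti-Vegf it was −0.42 (adjusted p = 0.259).

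Dexamethasone was then compared with the other treated groups, which asks how far a glucocorticoid and blockade of Vegf differ in the sutured cornea. Of the 57 genes, 4 were lower and 0 higher in dexamethasone than in anti-Vegf corneas (adjusted p under 0.05, with no fold limit), where 2.5% of all genes were lower and 4.63% higher. Relative to IgG, again 4 were lower and 0 higher, where 3.16% of all genes were lower and 7.41% higher. The median log2 difference of the 57 genes was −0.24 from anti-Vegf and −0.18 from IgG, beside 0.02 and 0.02 over all genes. These comparisons share the dexamethasone arrays. Of the 14 leukocyte genes, 1 was lower in dexamethasone than in anti-Vegf corneas and 0 were called relative to IgG. Of the 6 neutrophil genes, 0 were called in either comparison. Of the 8 keratocyte genes, 3 were higher relative to anti-Vegf and 0 relative to IgG (median log2 difference 0.63 and 0.20). Of the 12 monocyte and macrophage genes, 1 was lower and 1 higher in each comparison. Cd68, a lysosomal protein of macrophages, was lower in dexamethasone than in anti-Vegf and IgG corneas (−0.81 and −0.86, adjusted p = 0.00382 and 0.00154), while Lyz2, another of the 12 monocyte and macrophage genes, was higher (0.69 and 0.72, adjusted p = 0.0448 and 0.0287). Of the 16 T and NK cell genes, 4 were lower than in IgG corneas (Cd3d, Cd3e, Cd5 and Ncr1, −0.43 to −0.35), and all dexamethasone arrays had a lower mean of that list than all IgG arrays. The mean of that list lay below the 40th percentile of signals on every array, so these small differences rest on low signals. The mean of 4 dendritic cell genes was 6.08 to 6.32 in dexamethasone, 6.34 to 6.48 in anti-Vegf and 6.25 to 6.95 in IgG corneas, with Clec9a lower than in IgG (−0.85, adjusted p = 0.0467). The part of these cells in the differences was not tested. Without F26, F1x and F19 the numbers were 4 lower relative to anti-Vegf and 1 lower relative to IgG. Without F25, 3 were lower and 1 higher relative to anti-Vegf and 4 lower and 1 higher relative to IgG, the higher gene being Ifitm2 in both (0.30 and 0.27, adjusted p = 0.0395 and 0.0494).

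Rsad2 (viperin), a radical-SAM enzyme that makes a chain-terminating nucleotide, was the clearest of them. It read 9.53, 9.20, 8.80 and 9.69 in dexamethasone, against 11.57, 11.82, 11.20 and 11.15 in anti-Vegf, 10.70, 11.94, 10.94 and 11.11 in IgG and 10.92, 11.24, 11.40 and 11.29 in naïve corneas. The highest dexamethasone array lay below the lowest array of every other group, and the other 3 groups overlapped. Rsad2 was 4.38-fold lower than with anti-Vegf (adjusted p = 0.000288), 3.65-fold lower than with IgG (adjusted p = 0.000301) and 3.75-fold lower than in naïve corneas (adjusted p = 3.8e-05). Poly-A controls differed between dexamethasone and the other treated groups. They were not shown to differ between dexamethasone and naïve, groups that also differ in suture and drops. The part of these in the differences of Rsad2 was not tested. The lower signal of Rsad2 held without any 1 array. It also held without F26, F1x and F19 together, at −2.05, −1.58 and −1.87 relative to anti-Vegf, IgG and naïve. In anti-Vegf and IgG corneas Rsad2 was 0.22 ± 0.24 and −0.04 ± 0.24 from naïve. Its neighbour in the RefSeq gene order, Cmpk2, a mitochondrial nucleotide kinase that is co-expressed with Rsad2 in interferon responses, was lower too, at −1.32, −1.24 and −1.27 on the log2 scale relative to anti-Vegf, IgG and naïve (adjusted p = 0.00122, 0.00121 and 0.000209).

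Irf1, an early factor downstream of interferon-gamma and NF-κB, read 10.87, 10.68, 10.44 and 10.95 in dexamethasone, against 11.33, 11.35, 11.36 and 11.63 in anti-Vegf, 11.42, 11.48, 11.31 and 11.26 in IgG and 10.80, 10.97, 11.14 and 11.35 in naïve corneas. It fell by 0.68 relative to anti-Vegf (SE 0.12, adjusted p = 0.00513) and by 0.63 relative to IgG (SE 0.12, adjusted p = 0.00502), with no overlap in either. Relative to naïve it was −0.33 ± 0.12 with dexamethasone, 0.35 ± 0.12 with anti-Vegf and 0.30 ± 0.12 with IgG, under the fold limit in each, so the naïve level lay between the treated groups. The call relative to IgG was lost when F26, F1x and F19 were left out together (−0.58, adjusted p = 0.0626).

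The calls of Ifit2, Ifih1 and Stat6 were less stable. Ifit2, an RNA-binding antiviral protein, read 10.93, 11.16, 10.37 and 10.52 in dexamethasone, against 12.06, 11.64, 10.96 and 11.61 in anti-Vegf, 11.49, 11.78, 10.85 and 11.33 in IgG and 11.61, 11.67, 11.01 and 11.46 in naïve corneas. The dexamethasone arrays overlapped each other group. It fell by 0.83 relative to anti-Vegf (adjusted p = 0.0488) and by 0.70 relative to naïve (adjusted p = 0.0471), and was −0.62 from IgG (adjusted p = 0.117). Leaving out 1 array ended the call in 11 of 16 cases against anti-Vegf (all but F6, F19, F22, F26 and naïve 3, with adjusted p up to 0.134) and in 10 of 16 against naïve (all but F1x, F6, F19, F22, F26 and naïve 3, with adjusted p up to 0.136). Its second probe set was lower in all 3 comparisons, by 1.14, 0.95 and 0.91 on the log2 scale (adjusted p = 0.0131, 0.0256 and 0.0148 relative to anti-Vegf, IgG and naïve). Ifih1 (MDA5), a cytoplasmic sensor of viral RNA, read 6.49, 6.37, 6.40 and 6.23 in dexamethasone, against 6.73, 6.69, 6.60 and 6.60 in anti-Vegf, 6.66, 6.72, 6.56 and 6.67 in IgG and 6.72, 6.90, 6.77 and 6.93 in naïve corneas. The dexamethasone arrays were below all others, but by little, −0.28 from anti-Vegf (adjusted p = 0.0358), −0.28 from IgG (adjusted p = 0.0297) and −0.45 from naïve (adjusted p = 0.000396, under the fold limit). Leaving out any anti-Vegf array, or F26, F27 or F30, ended the first of these calls (adjusted p = 0.0554 to 0.0884), and leaving out F17, F19, F23, F26, F27 or F30 the second (adjusted p = 0.0584 to 0.0871). Stat6 fell by 0.44 relative to IgG (adjusted p = 0.0446) with overlapping arrays, and lost the call in 9 of 16 cases, when F2, F6, F7, F17, F22, F23, F26, F27 or naïve 2 was left out (adjusted p up to 0.139).

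Of 22 further probe sets of members, other than those with the highest signal, 5 were called relative to IgG and 3 relative to anti-Vegf. All of them were lower in dexamethasone, and both counts include that of Ifit2. Relative to IgG the others were a probe set each of Ifnar1 (−0.52, adjusted p = 0.0335), Ifngr2 (−0.94, adjusted p = 0.0313), Irf2 (−0.26, adjusted p = 0.0429) and Irf2bpl (−0.34, adjusted p = 0.0215). Relative to anti-Vegf they were a probe set each of Ifnar2 (−0.45, adjusted p = 0.0300) and Irf2 (−0.27, adjusted p = 0.0426). That of Irf2 read 4.33 to 4.89, below the 40th percentile of every array. The main probe set of Irf2 averaged 9.95 in dexamethasone, 10.02 in anti-Vegf and 9.94 in IgG corneas.

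**Figure D4:**
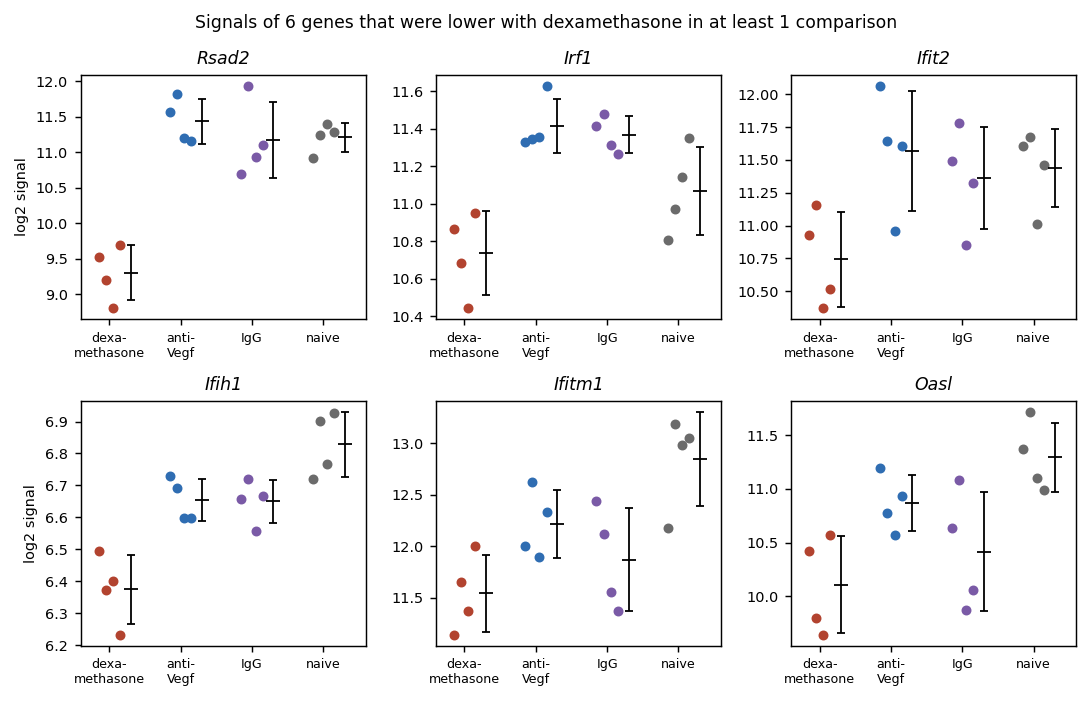
Log2 signal of Rsad2, Irf1, Ifit2, Ifih1, Ifitm1 and Oasl on each array, 4 arrays per group, with the group mean and SD beside the points. Only for Rsad2 and Ifih1 do the dexamethasone arrays lie below every array of the other 3 groups.

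The window of Rsad2 holds an ISRE core on the opposite strand, 147 bases before the gene start, and that of Irf1 a GAS at 142 bases before it. Irf9, which rose in all treated groups, has a GAS at 99 bases before its start. Ifih1 has an ISRE core 59 bases before its start. The first 2 genes and Ifih1 were called lower in dexamethasone than in both other treated groups, and Irf9 rose more than the other IRF factors. The matching bases are in capitals.
Rsad2 (chr6:48788248-48788277, minus strand): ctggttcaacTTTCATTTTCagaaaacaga
Irf1 (chr10:38417783-38417812, plus strand): acagcctgatTTCCCCGAAatgatgaggcg
Irf9 (chr15:33065727-33065756, plus strand): accacgtgatTTCTAGGAActgcacctccc
Ifih1 (chr3:67684008-67684037, minus strand): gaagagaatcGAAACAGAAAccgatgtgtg

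Anti-Vegf and IgG were not told apart by these genes. By limma 0 of the 57 passed the test, with a smallest adjusted p of 0.925, and 0 had an unadjusted p under 0.05, while over all genes 0% were higher and 0% lower and 942 had an unadjusted p under 0.05. The log2 differences of anti-Vegf from IgG ran from −0.53 (Mx1) to 0.52 (Ifit3), with a median of 0.04. For Stat3 all anti-Vegf arrays lay below all IgG arrays (10.83 to 10.90, against 11.09 to 11.24), at −0.32 ± 0.28 (adjusted p = 0.964). Gbp4 was the other gene whose arrays did not overlap, above IgG by 0.47 ± 0.48 (adjusted p = 0.970). The standard error was 0.49 for Isg15 and 0.51 for Mx2, so small differences of such genes were not detectable with 4 arrays a group.

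Other genes of the pathway were read from 4 lists. Among 12 kinases and adaptors, 5 rose with dexamethasone and 3 each with anti-Vegf and IgG, and 0 fell. They include Jak2, the kinase bound to Ifngr2 (2.09-fold, 2.02-fold and 2.31-fold), Jak3 (1.81-fold, 1.87-fold and 1.92-fold) and Myd88, the adaptor of Toll-like receptors (1.70-fold, 1.96-fold and 1.99-fold). Zbp1, a sensor of Z-form nucleic acids, was lower in dexamethasone than in anti-Vegf (−0.83, adjusted p = 0.0105) and IgG corneas (−0.64, adjusted p = 0.0275). Of 10 inhibitors of the signal, Socs3, the feedback inhibitor of Stat3, rose 2.62-fold, 4.07-fold and 6.18-fold over naïve, and was lower in dexamethasone than in IgG (−1.24 ± 0.24, adjusted p = 0.00497). In this list 2, 2 and 1 genes rose over naïve and 0 fell.

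Of 30 other interferon-induced genes, 8 rose and 1 fell with dexamethasone, 15 rose and 1 fell with anti-Vegf and 14 rose and 1 fell with IgG. Plscr1, a phospholipid scramblase, rose 4.32-fold, 5.38-fold and 6.01-fold, Lgals9, a galectin, 3.09-fold, 5.37-fold and 4.54-fold, and Lgals3bp 2.76-fold, 3.57-fold and 3.76-fold. The gene that fell with dexamethasone was Cmpk2, and the one that fell with anti-Vegf and with IgG was Trim14 (−0.72 and −0.59). Of 18 interferon-gamma targets and antigen-presentation genes, 7, 9 and 8 rose and 0 fell. Cd74, the invariant chain of MHC class II, rose 5.34-fold, 6.24-fold and 7.37-fold, the immunoproteasome subunits Psmb8 2.26-fold, 2.88-fold and 2.76-fold and Psmb9 2.38-fold, 2.84-fold and 2.37-fold, and the immunity-related GTPase Igtp 1.91-fold, 3.42-fold and 2.65-fold. Igtp and its relative Irgm were lower in dexamethasone than in anti-Vegf (−0.84 and −0.59, adjusted p = 0.0319 and 0.0105). The lists were written with earlier results of these data known. The median differences from naïve of the last list were 0.45, 0.51 and 0.51, with leukocyte markers higher in the same corneas, as given above.

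In the promoter windows, the ISRE core GAAANNGAAA was sought on both strands, and the GAS TTCNNNGAA, which reads the same on both. A window was found for 47 of the 57 genes. Those of Ifit1, Ifit2, Ifitm1, Adar, Ifi27l2b, Isg15, Dhx58, Mx2, Usp18 and Irf2 were not among the sequences used here. The ISRE core was present for 19 of the 47 genes (40.4%), beside 4.12% of 27457 genes with a window, and the GAS for 11 (23.4%), beside 9.39%. The genes with an ISRE core include all 3 guanylate-binding proteins, Tap1 and Tap2, Ifitm2 and Ifitm3, whereas those with a GAS include Irf1, Irf8, Irf9 and Ifnar2. Gbp7, Bst2, Ifitm3, Oas1a, Oas1b and Ifi44l have both. In Bst2, Oas1a and Oas1b, 2 ISRE cores overlap. The sites of further members that were called higher in all 3 comparisons with naïve follow, with matching bases in capitals.
Ifitm2 (chr1:205482362-205482391, minus strand): ccaccaacagGAAAAGGAAActgctagaga
Ifitm3 (chr1:205541783-205541812, minus strand): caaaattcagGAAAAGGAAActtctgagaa
Tap1 (chr20:4668645-4668674, minus strand): cggtggctgcTTTCGGTTTCttcttcctct
Tap2 (chr20:4652318-4652347, minus strand): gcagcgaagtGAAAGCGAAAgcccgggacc
Bst2 (chr16:18255073-18255102, minus strand): ccaggaaaatGAAACTGAAAggtggcagca

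The 19 genes with an ISRE core had median log2 differences from naïve of 0.65 with dexamethasone, 1.02 with anti-Vegf and 0.76 with IgG, and the 28 genes whose window lacks it 0.24, 0.36 and 0.35. Of the 19, 9 rose and 1 fell with dexamethasone, 13 rose and 0 fell with anti-Vegf and 8 rose and 0 fell with IgG. Of the 28, 6 rose and 2 fell, 8 rose and 1 fell, and 8 rose and 1 fell. Among the genes without the core were Ifngr1 and Stat3, which rose, and Oasl, which fell. All of the 19 but Irf7 and Ifih1 encode effectors, whereas most of the 28 encode ligands, receptors, transcription factors or their binding proteins. The motif and the kind of gene therefore cannot be told apart in these medians. Relative to anti-Vegf the medians with dexamethasone were −0.39 for the 19 genes and −0.13 for the 28. A match is a description of the letters in the window and does not show that a factor binds there.

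**Figure D5:**
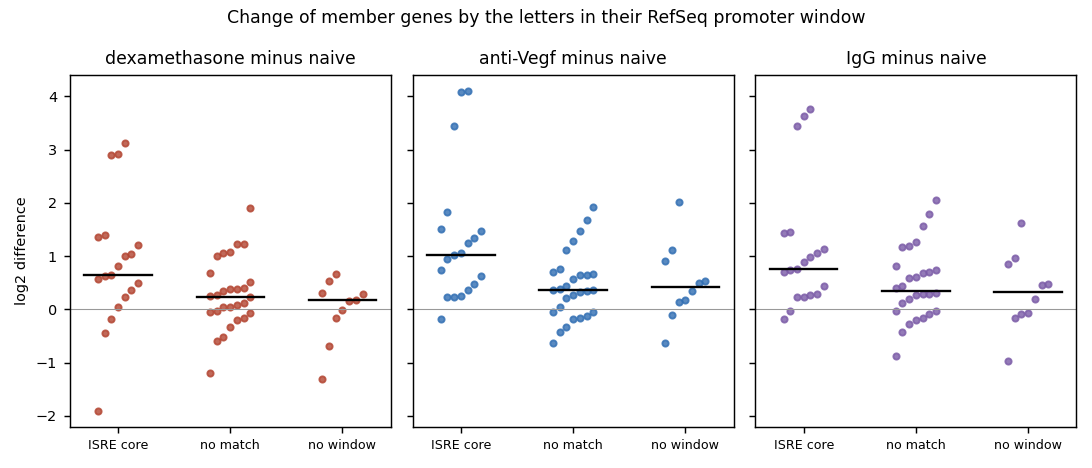
Log2 difference from naïve of the member genes with an ISRE core in their window (19), with a window that lacks it (28) and with no window (10), for dexamethasone, anti-Vegf and IgG; each point is a gene and the line is the median. The 3 highest points in the first column of each panel are Gbp2, Gbp4 and Gbp7, and the lowest with dexamethasone is Rsad2.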

How the data were processed

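Each probe set has a log2 signal in the deposited table, which per the labels came from RMA in the Affymetrix Expression Console, and these values entered the tests unchanged. After removal of 57 control probe sets, 31042 were tested, 20826 of them with 1 gene symbol, and each gene was read from its probe set of highest mean signal. All 16 arrays were fitted together with limma 3.58.1 in R 4.3.3, with a mean for each group and 12 residual degrees of freedom, moderated by empirical Bayes, and p-values were adjusted by Benjamini-Hochberg over all tested probe sets. Control measures were compared by exact permutation tests with scipy 1.17.1. The fit was tested on simulated data. The number of arrays limits the precision, and p-values measure the spread between corneas of 1 experiment.

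Named genes were the 10 called members with the largest difference in each comparison, the member of each role whose signal was highest, and Ifnar1, Rsad2 and Ifit2. Further genes were named after their values were seen. The members, the gene lists and these rules were chosen with earlier results of these data known. As alternatives, the fit was repeated with a variance trend and robust moderation, with array weights, with only 2 groups, after centring on 6 reference genes, after cyclic loess, without low signals (those above the 40th percentile on fewer than 4 arrays), with probe sets averaged per gene, with Storey's q-value, with another fold limit and without each array. Leaving out F26, F1x and F19 together was added after seeing the data. The array scans were not analysed here.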

Additional observations from a re-analysis of the deposited data

Results flagged for a closer look

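Over the 57 genes and 4 groups, 228 sets of 4 arrays were examined for an array far from the other 3, and 17 (7.46%) held one, where chance gives about 1 in 20. In the anti-Vegf group, array F1x stood above the other 3 for Irf7 (11.497, others up to 10.35), Irf9 (9.364), Adar (8.621), Ifnlr1 (7.803) and Dhx58 (5.656), and array F7 for Irf1 (11.63). In the IgG group, array F19 stood above the others for Mx2 (7.811) and Dhx58 (5.772). In the dexamethasone group, array F25 lay below the others for Gbp2 (10.337), Stat3 (9.494) and Oas1b (4.461), F27 for Ifi35 (8.88), and F26 and F30 lay above them for Usp18 (8.578) and Ifitm10 (8.145). In the naïve group, array 1 was high for Oas1b (4.676) and low for Stat3 (8.414), and array 4 was high for Stat5a (8.263).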

How the results depend on the processing

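The numbers of member genes called against naïve kept within 1.5 times of 20 (dexamethasone), 24 (anti-Vegf) and 20 (IgG) under all alternatives, and leaving out 1 array gave 16 to 21, 21 to 25 and 17 to 23. Dexamethasone against anti-Vegf had 4 calls, 2 with a variance trend and robust moderation, 2 with only the 2 groups in the fit, 2 after centring on reference genes, and 2 to 6 without 1 array, the lowest without F1x, F2, F7 or F27. Dexamethasone against IgG had 4 calls, 2 with only the 2 groups, 2 with a fold limit of 1.5, 1 without F26, F1x and F19, and 2 to 5 without 1 array, the lowest without F17, F23, F26 or F27. Anti-Vegf against IgG had 0 throughout. There were 38 calls of named genes among the 10 largest of their comparison. Of these, 32 held under all 26 settings that could be fitted for them and 0 changed direction. The other 6 were lost under at least 1 (Ifit2 and Ifih1 against anti-Vegf, Ifih1, Stat6 and Irf1 against IgG, and Isg15 with IgG). Other calls of named genes are not in the 38. Those of Ifit2, Stat3 and Eif2ak2 with dexamethasone and of Oasl with IgG, against naïve, were also lost without 1 array, as given above. Oas1b, called with anti-Vegf, is removed by the filter on low signals. Of all 72 calls, 54 held without any 1 array. No paired analysis was possible because the groups share no replicate numbers. Low signals limit the ligands, and 7 member genes were above the 40th percentile on fewer than 4 arrays.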
